A study of Mus musculus with 29 samples.

Results

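Interferon gamma and the genes around it were followed in the inflamed mouse colon as a set of 10 genes. They are the cytokine Ifng, its lymphocyte regulator Tbx21 (the transcription factor T-bet), the shared IL-12 and IL-23 subunit Il12b, the receptor chains Il12rb1 and Il12rb2, the signal transducer Stat4, the chemokines Cxcl9, Cxcl10 and Cxcl11, and their receptor Cxcr3. The members were taken as the 10 of 54532 genes in the count table whose Ensembl identifier carried one of these symbols. All 10 passed the filter on low counts, a mean of at least 3 counts over all mice, which left 18616 genes for testing.

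T-helper 1 cells and natural killer cells make interferon gamma. Dendritic cells and macrophages release IL-12, a heterodimer whose larger subunit is the product of Il12b, and IL-12 signals through a receptor of 2 chains to STAT4, which together with T-bet drives transcription of Ifng. Interferon gamma in turn makes epithelial, stromal and myeloid cells transcribe CXCL9, CXCL10 and CXCL11, and these chemokines attract lymphocytes that bear CXCR3. In the gut this circuit is known from colitis and from the clearance of intracellular microbes.

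The series holds bulk RNA-seq of colon from 29 mice in 9 groups. Among the Balb/C mice, 3 were WT controls, 3 had received 3% DSS (dextran sulphate sodium, which damages the epithelium) for 5 days with culling on day 10, 3 had received 3 mg DNBS (a hapten) by the rectal route in 50% ethanol, and 4 carry the label of an IL10 blocking antibody, 750 µg given against the IL-10 receptor, with culling after 4 weeks. A further 3 Balb/C mice were Rag2-/- controls and 4 were TRUC mice, Tbx21-/- x Rag2-/- animals that develop colitis without T and B cells. The C57BL/6 Rag1-/- mice were 3 controls, 3 given 500000 naive CD4+ T cells and culled after 6 to 8 weeks (T cell transfer, TCT, for which the treatment text names Rag2-/- recipients), and 3 given 50 µg of an antibody to CD40 intraperitoneally and culled after 7 days (anti-CD40), which activates myeloid cells where lymphocytes are lacking. TRUC was set against Rag2_control, TCT and anti-CD40 against Rag1_control, and DSS, DNBS and IL10 against WT_control. The labels name each mouse as a separate sample but give no litter, cage or extraction batch.

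Total counts ran from 10725564 to 14977094 per mouse. Several labels did not sit with the transcripts. H2-Ea-ps, an MHC class II gene that BALB/c mice transcribe and C57BL/6 mice do not, was looked up after its values had been seen: it had 0 to 1 counts per mouse in the WT_control, DSS, DNBS, IL10 and TCT groups, 784 to 1462 in Rag2_control, 2981 to 3956 in TRUC, 787 to 1011 in Rag1_control and 2262 to 2512 in anti-CD40. By this gene the mice labelled TCT stand apart from the other mice labelled C57BL/6 Rag1-/-, their own controls included, and the WT_control, DSS, DNBS and IL10 mice stand apart from the other mice labelled Balb/C. Rag1 transcripts numbered 20 to 33 in TCT and 0 to 4 elsewhere, while Rag2 transcripts numbered 6 to 99 in the Rag2_control, TRUC, Rag1_control and anti-CD40 mice and 0 to 1 in all others. The IL10 group, labelled with an antibody, had 61 to 111 counts of Il10 itself. Group names are therefore used as labels, and TCT was also set against WT_control and anti-CD40 against Rag2_control. DSS mouse 8 and DNBS mouse 16 stood far from their group mates in the genes below, so results for those groups are given with and without them.

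Ifng (ENSMUSG00000055170, chr10:118441046-118445892 in GRCm38, 3 exon blocks, plus strand) was close to undetected in every control colon and reached 11 to 75 counts in the mice of the IL10, TCT and TRUC groups. The controls together held 2 counts of it, 1 in WT_control mouse 4 and 1 in Rag2_control mouse 1, and the 3 Rag1_control mice held 0. A count of 0 in a mouse allows up to 3 counts at this depth. The gene Gm49751 lies within the Ifng locus and shares 19.9% of its 50-base windows, so part of the reads could have been assigned elsewhere.

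As CPM, the counts scaled to the total of each mouse after edgeR's TMM adjustment, Ifng was 3.20, 2.81, 2.92 and 7.01 in the 4 IL10 mice. It was 3.93, 4.36 and 6.95 in the 3 TCT mice and 1.47, 3.11, 2.66 and 0.896 in the 4 TRUC mice. Every one of these mice lay above every control mouse. The anti-CD40 mice held 0.752, 1.63 and 0.359 CPM, low but again above all controls. DSS mice held 0.441, 0.137 and 47.5 CPM, and DNBS mice 0.119, 0 and 3.16. In these chemically treated groups a single mouse carried nearly all of the transcript: DSS mouse 8 had 594 of the 603 DSS counts, and DNBS mouse 16 had 37 counts where the other 2 had 2 and 0.

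**Figure D1:**
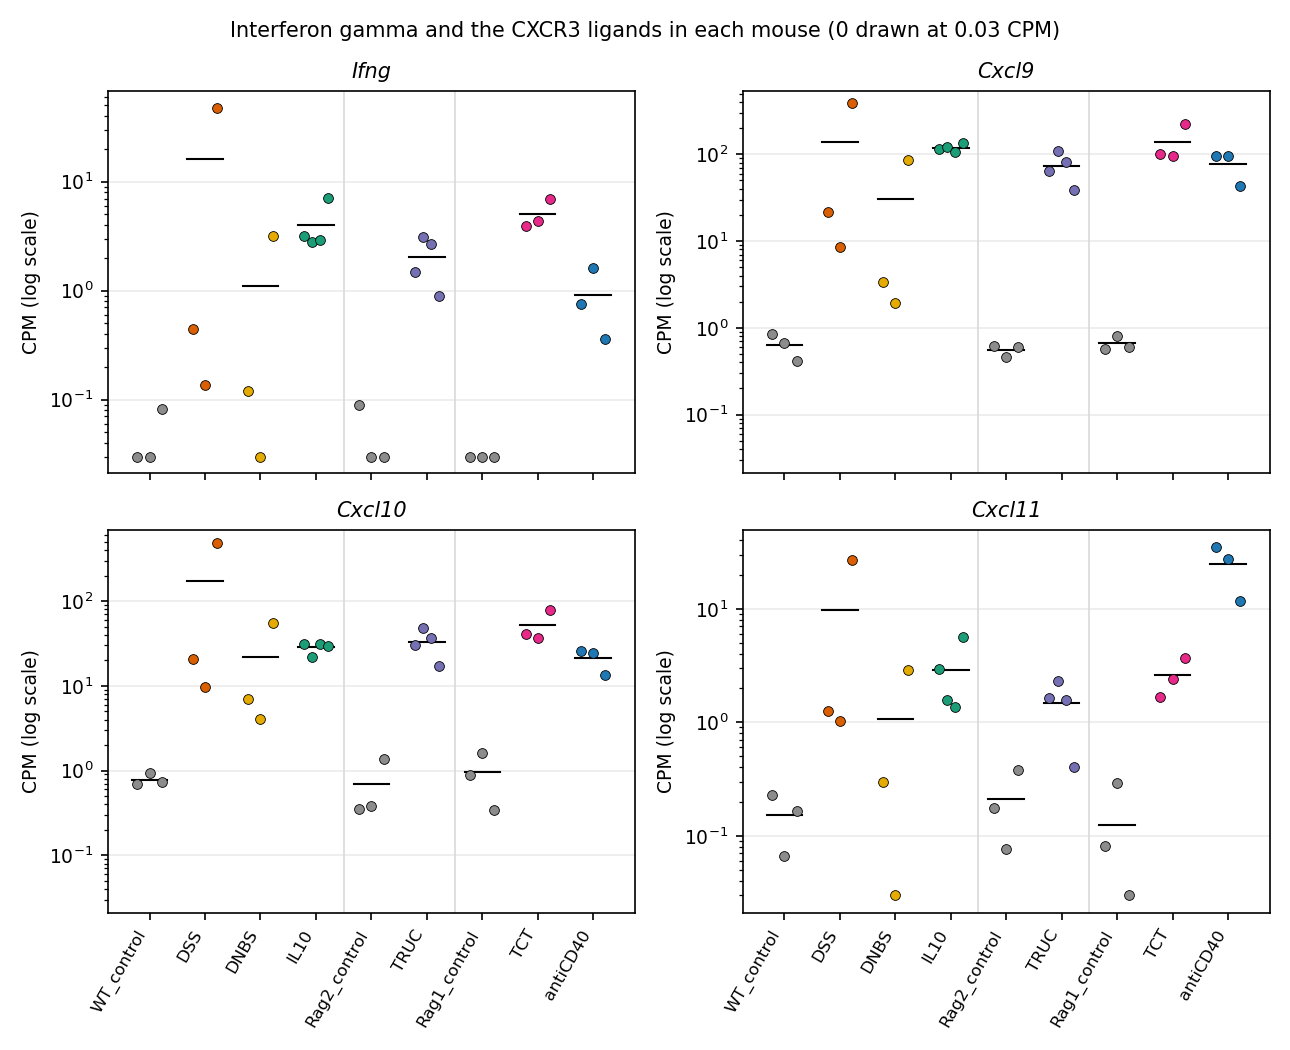
CPM of Ifng, Cxcl9, Cxcl10 and Cxcl11 in each mouse by group on a log axis, with mice at 0 drawn at the foot of the axis and a bar at each group mean. Cxcl9 lies at or below 0.838 CPM in all 9 control mice and at or above 1.94 CPM in all 20 colitis mice, and Cxcl11 is highest on average in the anti-CD40 group.

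Because the controls held so few counts, Ifng folds are given as ratios of depth-scaled summed counts with an exact 95% interval that covers counting error only. The ratio was 157 (27.8 to 6229) in IL10 and 74.4 (13.0 to 2970.3) in TRUC, and, taking 3 counts over the Rag1_control group as the limit, Ifng was at least 63.0-fold higher in TCT mice and at least 11-fold higher in anti-CD40 mice. By edgeR's quasi-likelihood test, Benjamini-Hochberg adjusted over all genes tested, Ifng rose in DSS (adjusted p = 0.00193), IL10 (0.00967), TCT (0.0110) and TRUC (0.0401). The call for DSS was lost without mouse 8 (log2 fold change 3.12, adjusted p = 0.273), and that for TRUC in 5 of the 7 fits with a single mouse left out (edgeR adjusted p up to 0.109). In DNBS (0.230) and anti-CD40 (0.156) the change did not pass. In bulk tissue, fewer cells of a type and less RNA per cell cannot be told apart, so these levels speak of the colon and not of a cell.

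Ifng transcripts were also present where T-cell transcripts were few. The sum of 10 T-cell markers was 12.1 to 17.3 CPM in TRUC against 5.36 to 10.3 in Rag2_control, with 5 of the 10 higher by the edgeR test, and 7.82 to 12.2 in anti-CD40 against 6.73 to 8.62 in Rag1_control. Cd3e, one of these markers and a chain of the T-cell receptor complex, had 0 to 2 counts in each TRUC mouse and 0 to 1 in each anti-CD40 mouse. Ncr1, the receptor NKp46 of natural killer cells and some innate lymphoid cells, had 51 to 81 counts in TRUC mice against 13 to 22 in Rag2_control (log2 fold change 2.02 ± 0.55 SE, edgeR adjusted p = 0.00463), and 28 to 44 in anti-CD40 against 10 to 16 in Rag1_control (1.40 ± 0.59, 0.0923). The sum of 6 natural killer markers was 9.36 to 16.1 CPM in TRUC against 2.12 to 4.08 in Rag2_control. It was 6.60 to 9.0 CPM in anti-CD40 and 8.82 to 10.9 in TCT, both against 2.24 to 3.61 in Rag1_control. Whether these cells made the Ifng transcript was not tested.

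Cxcl9, Cxcl10 and Cxcl11 lie side by side on chromosome 5 in GRCm38, all on the minus strand: Cxcl9 at chr5:92321347-92328079, Cxcl10 at chr5:92346638-92348889 and Cxcl11 at chr5:92359544-92365485. The 250 bases before the transcription start of Cxcl10 and Cxcl9 and, for comparison, of Ifng are shown from RefSeq (GRCm38.p6), since the levels of the cytokine and of these ligands carry the results below. Capitals mark matches to the interferon-stimulated response element, to the NF-kB site or to the gamma-activated site (TTCNNNGAA), each searched on both strands.
Cxcl10 (chr5:92348890-92349139, minus strand): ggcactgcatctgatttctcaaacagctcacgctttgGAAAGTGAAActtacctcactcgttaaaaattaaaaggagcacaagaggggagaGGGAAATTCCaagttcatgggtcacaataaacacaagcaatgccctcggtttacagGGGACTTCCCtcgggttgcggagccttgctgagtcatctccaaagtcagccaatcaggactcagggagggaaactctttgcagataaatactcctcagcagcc
Cxcl9 (chr5:92328080-92328329, minus strand): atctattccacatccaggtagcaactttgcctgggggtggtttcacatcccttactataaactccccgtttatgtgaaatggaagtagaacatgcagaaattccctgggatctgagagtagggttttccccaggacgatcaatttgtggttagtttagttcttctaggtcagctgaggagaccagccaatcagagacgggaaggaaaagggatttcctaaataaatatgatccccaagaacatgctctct
Ifng (chr10:118440796-118441045, plus strand): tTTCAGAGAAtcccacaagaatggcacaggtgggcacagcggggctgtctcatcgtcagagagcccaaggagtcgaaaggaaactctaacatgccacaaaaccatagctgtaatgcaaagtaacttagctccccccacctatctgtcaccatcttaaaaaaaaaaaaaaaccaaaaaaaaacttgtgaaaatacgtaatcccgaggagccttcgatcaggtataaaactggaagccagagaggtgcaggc

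The Cxcl10 window held an interferon-stimulated response element that begins 213 bases before the start and NF-kB matches that begin 159 and 103 bases before it, and the Ifng window held a gamma-activated site at its far end, 249 bases before the start. The Cxcl9 window held none of the motifs searched, which says only that these letters are not in these 250 bases. Of 32851 mouse promoters of this length, 2.98% held the response element, 3.90% the NF-kB site, 7.02% the gamma-activated site and 3.33% the T-box motif TCACACC. Promoter sequence was at hand for 8 of the 10 members.

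Cxcl9 was the clearest member. It stood between 0.410 and 0.838 CPM in the 9 control mice. The IL10 mice held 116, 122, 105 and 135 CPM, the TCT mice 101, 96.0 and 224, and the anti-CD40 mice 95.3, 94.7 and 43.2. TRUC mice held 63.6, 109, 81.6 and 38.4 CPM. In these 4 models every mouse exceeded the highest control by a wide margin, and the IL10 mice were close to each other (119 ± 12.3 CPM, SD, n = 4). The DSS mice held 21.9, 8.55 and 386 CPM and the DNBS mice 3.34, 1.94 and 85.6. Again mouse 8 and mouse 16 were far above their group mates, but the lower mice of both groups still exceeded all controls.

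Cxcl9 rose in all 6 models (edgeR quasi-likelihood test). The log2 fold change was 7.73 ± 1.43 in DSS (SE, adjusted p = 0.000269), 7.70 ± 1.43 in TCT (0.000226), 7.51 ± 1.40 in IL10 (0.000130), 7.01 ± 1.42 in TRUC (0.000403), 6.85 ± 1.41 in anti-CD40 (0.00160) and 5.52 ± 1.39 in DNBS (0.0212). Without DSS mouse 8, DSS kept its call at a log2 fold change of 4.55 (adjusted p = 0.00646). The DNBS call was lost in 4 of the 6 fits with a single mouse left out, at a log2 fold change of 2.05 without mouse 16 (adjusted p = 0.486), and it was lost without DSS mouse 8 as well (2.05, 0.0986).

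Cxcl10, which many cell types transcribe in response to interferons and to NF-kB signals, also rose in all 6 models, by log2 fold changes of 7.73 ± 1.28 in DSS (edgeR adjusted p = 9.4e-05), 5.73 ± 1.21 in TCT (0.000858), 5.52 ± 1.23 in TRUC (0.000956), 5.15 ± 1.20 in IL10 (0.00109), 4.77 ± 1.23 in DNBS (0.0238) and 4.42 ± 1.20 in anti-CD40 (0.0112). Control mice held 0.344 to 1.62 CPM. The IL10 mice held 30.9, 21.7, 31.2 and 29.8 CPM, the TRUC mice 30.7, 48.2, 36.7 and 17.2, and the TCT mice 40.4, 37.1 and 79.3. The anti-CD40 mice held 25.7, 24.6 and 13.3 CPM, the DSS mice 21.0, 9.64 and 482, and the DNBS mice 7.05, 4.11 and 55.1. No colitis mouse overlapped a control. The DNBS call of Cxcl10 was also lost in 4 of the 6 fits with a single mouse left out. Without mouse 16 it stood at a log2 fold change of 2.82 (edgeR adjusted p = 0.249), and without DSS mouse 8 as well it was 2.82 and passed (0.00601).

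Cxcl11 gave a different order of models. GENCODE marks it as a polymorphic pseudogene, and 40.4% of its 50-base windows are shared with the overlapping processed pseudogene Gm2673, which held 0 counts in every mouse, so its level is uncertain by an amount these tables do not show. Control mice held 0 to 0.378 CPM. The anti-CD40 mice held 34.8, 27.6 and 11.6 CPM, above every mouse of the other models except DSS mouse 8. The IL10 mice held 2.95, 1.56, 1.37 and 5.65 CPM, the TCT mice 1.66, 2.39 and 3.71, and the TRUC mice 1.62, 2.31, 1.56 and 0.407. The DSS mice held 1.26, 1.03 and 27.1 CPM and the DNBS mice 0.299, 0 and 2.90. DSS, IL10, TCT, TRUC and anti-CD40 mice lay above their controls, while DNBS overlapped them.

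The summed counts of Cxcl11 in anti-CD40 were 177 times those of Rag1_control after scaling for depth (95% counting interval 75.5 to 546). The same ratio was 58.4 (26.6 to 160) in DSS, 19.2 (7.94 to 60.7) in TCT and 18.9 (8.43 to 52.5) in IL10. Cxcl11 rose in anti-CD40 (log2 fold change 7.44 ± 1.34 SE, edgeR adjusted p = 0.000524), DSS (5.93 ± 1.31, 0.00132), IL10 (4.17 ± 1.34, 0.0119) and TCT (4.19 ± 1.44, 0.0298). The TCT call was lost in 4 of the 6 fits with a single mouse left out (edgeR adjusted p up to 0.0924). It did not pass in TRUC (2.73 ± 1.34, 0.0986) or DNBS (2.67 ± 1.52, 0.282).

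The 3 ligands were present in different proportions in different models. For every 100 counts of Cxcl9, the anti-CD40 mice held between 26.9 and 36.5 counts of Cxcl11, with a median of 29.1. The medians were 7.02 in DSS, 3.39 in DNBS, 2.01 in TRUC, 1.93 in IL10 and 1.66 in TCT, and the highest value in any of these 17 mice was 12.0, so the anti-CD40 mice did not overlap them. These proportions were looked at after the values had been seen and carry no test. Cxcl10 was divided otherwise, with 113 counts per 100 of Cxcl9 at the median in DSS and 211 in DNBS against 24.4 in IL10, 27.0 in anti-CD40, 38.6 in TCT and 44.9 in TRUC. The lowest DNBS mouse, at 64.3, still lay above the highest TRUC mouse, at 48.2. The controls, on few counts, lay at 81.8 to 180 in WT_control, 57.1 to 225 in Rag2_control and 57.1 to 200 in Rag1_control. DSS mouse 8, far above its group mates in level, lay near them in the proportions of these ligands, at 7.02 for Cxcl11 and 125 for Cxcl10. For Ifng it did not, with 12.3 counts per 100 of Cxcl9 against 2.01 in DSS mouse 5 and 1.60 in DSS mouse 6.

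**Figure D2:**
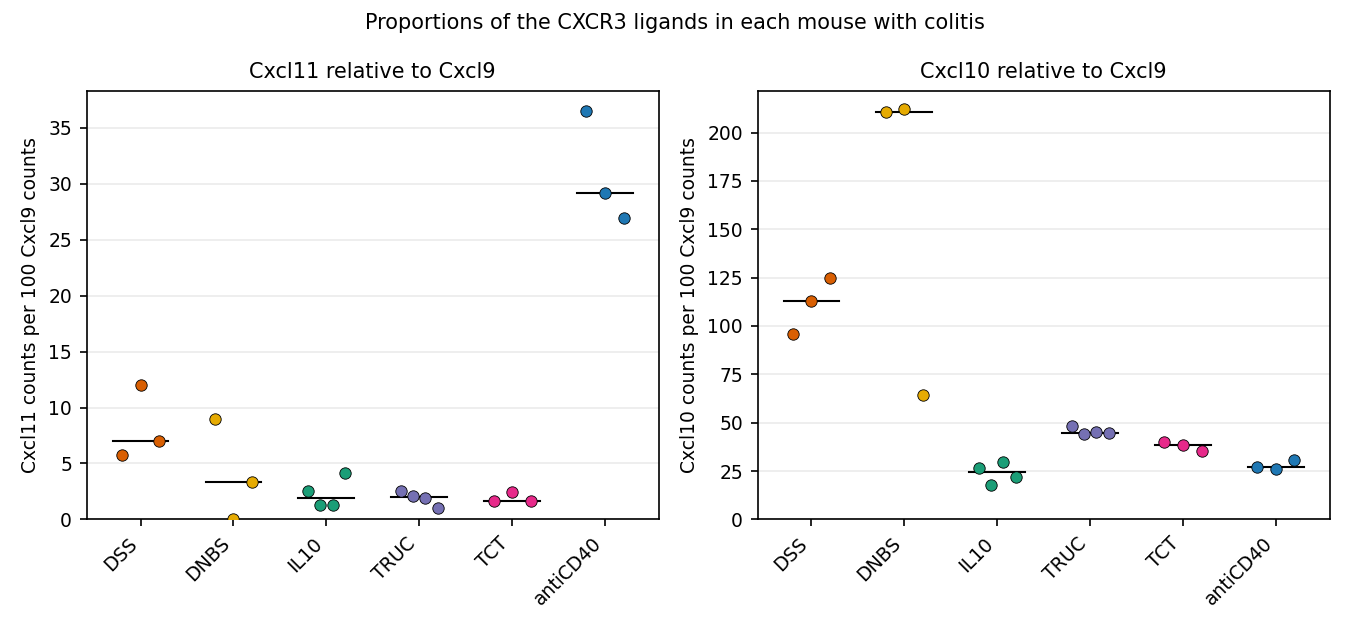
Counts of Cxcl11 (left) and Cxcl10 (right) per 100 counts of Cxcl9 in each colitis mouse, with a bar at each model's median. Anti-CD40 mice lie at 26.9 to 36.5 for Cxcl11 while all other colitis mice lie at 12.0 or below, and DSS and DNBS mice lie highest for Cxcl10.

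Per kilobase of annotated exon, which puts genes of different length on 1 scale, mean Cxcl9 was 39.6 CPM per kb in IL10, 46.5 in TCT and 24.3 in TRUC, above mean Cxcl10 at 12.6, 23.2 and 14.7. In DSS the order of the means was turned, with Cxcl10 at 75.8 and Cxcl9 at 46.1 CPM per kb. Mouse 8 carried most of both DSS means, with 482 CPM of Cxcl10 and 386 CPM of Cxcl9. DSS mice 5 and 6 held 21.0 and 9.64 CPM of Cxcl10 and 21.9 and 8.55 CPM of Cxcl9. Cxcl11 stayed lowest of the ligands in each model, at 6.50 CPM per kb in anti-CD40 and 0.281 to 2.58 in the others. The cytokine itself was far below Cxcl9 and Cxcl10, with Ifng at 3.08 CPM per kb in IL10 and 0.705 in anti-CD40.

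Cxcr3, the receptor that activated T cells, natural killer cells and some dendritic cells carry (ENSMUSG00000050232, chrX:101731535-101734269), gave another order of models than its ligands did. Control mice held 0.153 to 0.738 CPM. The TCT mice held 18.4, 11.3 and 9.82 CPM, higher than any other mouse of the series, and the IL10 mice followed with 3.63, 3.12, 5.49 and 2.93. The DSS mice held 1.95, 1.57 and 3.04 CPM and the DNBS mice 1.02, 0.931 and 2.13, all above WT_control. In the models with the fewest T-cell transcripts the receptor was low: TRUC mice held 1.40, 0.356, 1.10 and 0.733 CPM and anti-CD40 mice 0.376, 0.943 and 0.574, both overlapping their controls.

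Cxcr3 rose in TCT (log2 fold change 5.32 ± 0.49 SE, edgeR adjusted p = 1.9e-08), IL10 (2.70 ± 0.44, 2.8e-05) and DSS (1.90 ± 0.46, 0.00271). It did not pass in DNBS (1.20 ± 0.48, 0.121), TRUC (1.16 ± 0.50, 0.0635) or anti-CD40 (0.96 ± 0.58, 0.241). The call in DSS held without mouse 8 (log2 fold change 1.60, adjusted p = 0.0229).

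T-cell markers were summed in the same mice. The sum of 10 T-cell markers was 148 to 258 CPM in TCT, 120 to 198 in IL10, 49.3 to 84.9 in DSS, 10.3 to 39.7 in DNBS, 12.1 to 17.3 in TRUC and 7.82 to 12.2 in anti-CD40. In the controls it was 16.7 to 30.2 CPM in WT_control, 5.36 to 10.3 in Rag2_control and 6.73 to 8.62 in Rag1_control, where Cd3d and Cd8b1 stood at 0 counts, as did Cd3d in Rag2_control. All 10 markers rose in TCT and in IL10, 7 in DSS and 5 in TRUC by the edgeR test, while Cxcr3 did not pass in TRUC. In DNBS and anti-CD40 the edgeR test called 0, with 0 and 3 at an unadjusted p under 0.05, and the median log2 fold changes were 0.24 and 1.19. The DNBS marker sums overlapped those of WT_control, while Cxcr3 did not. Without DSS mouse 8 and DNBS mouse 16, 4 markers rose in DSS. The part of T-cell abundance in the Cxcr3 levels was not tested.

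**Figure D3:**
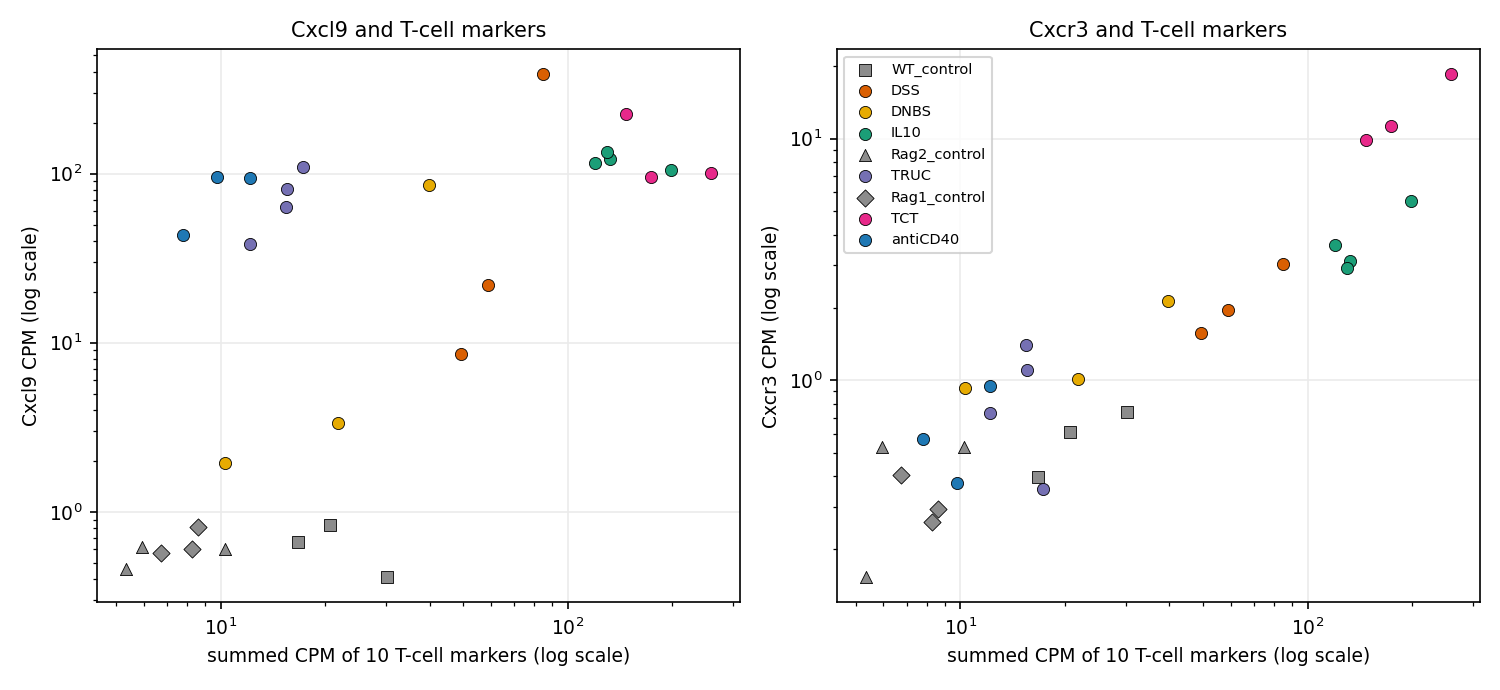
Summed CPM of 10 T-cell markers in each mouse against Cxcl9 CPM (left) and Cxcr3 CPM (right), both axes on a log scale, points coloured by group. Anti-CD40 and TRUC mice combine high Cxcl9 (38.4 to 109 CPM) with marker sums of 7.82 to 17.3 CPM, while TCT mice lie highest for Cxcr3.

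Il12b (chr11:44400063-44414033, plus strand) encodes p40, the subunit that IL-12 shares with IL-23. Control mice held 0 to 0.612 CPM. The TRUC mice held 3.61, 3.56, 3.76 and 1.79 CPM, the IL10 mice 1.52, 1.66, 3.17 and 0.941, and the TCT mice 2.36, 0.769 and 2.32. All of them lay above every control mouse. The DSS mice held 1.70, 0.752 and 13.8 CPM, the anti-CD40 mice 0.658, 0.686 and 0.431, and the DNBS mice 0, 0 and 1.02. The ratio of summed counts to control was 33.0 in DSS (95% counting interval 14.9 to 90.9), 12.6 in IL10 (5.54 to 35.3), 67.4 in TCT (11.7 to 2707) and 21.7 in anti-CD40 (3.50 to 899), the last 2 against a single control count.

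Il12b rose in DSS (log2 fold change 5.06 ± 1.12 SE, edgeR adjusted p = 0.00133), TCT (5.63 ± 1.57, 0.00827), IL10 (3.53 ± 1.15, 0.0128) and TRUC (2.98, adjusted p = 0.0145), and the DSS call held without mouse 8 (2.95, 0.0438). It did not pass in anti-CD40 (0.116) or DNBS (0.720). Of its partner subunits, Il12a, the p35 chain of IL-12, rose only in DSS among the 6 models (2.16 ± 0.62, 0.00975), and Il23a, the p19 chain of IL-23, passed in none, with adjusted p from 0.217 in DSS to 0.969 in anti-CD40. Both were low, at no more than 11 counts per mouse outside DSS, and Il23a was named after its values had been seen.

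The receptor chains parted from each other in level. Il12rb1, shared by the receptors for IL-12 and IL-23, held 0.177 to 1.11 CPM in controls. The TCT mice held 7.25, 6.15 and 8.34 CPM and the IL10 mice 4.47, 4.57, 9.87 and 4.50, above every control mouse. The TRUC mice lay between 1.63 and 2.85 CPM, the DSS mice at 2.27, 1.30 and 9.28, and the anti-CD40 mice at 2.16, 2.83 and 0.861, of which the lowest fell within the Rag1_control range. Il12rb1 rose in IL10 (log2 fold change 3.46 ± 0.67 SE, edgeR adjusted p = 0.000194), TCT (3.44 ± 0.68, 0.000395), DSS (2.98 ± 0.69, 0.00195) and TRUC (2.81 ± 0.76, 0.00444). In anti-CD40 it was 1.54 ± 0.71 (0.119) and in DNBS 1.01 ± 0.75 (0.420).

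Il12rb2, the chain particular to the IL-12 receptor, was the lowest of the receptor genes, at 0 to 0.295 CPM in controls and at most 2.56 CPM, in DSS mouse 8. Parts of its exons overlap Serbp1, so 38.0% of its 50-base windows are shared and its level is uncertain. The TCT mice held 1.48, 1.45 and 0.649 CPM and the IL10 mice 0.422, 0.831, 1.12 and 0.314, while anti-CD40 mice at 0.0939 to 0.431 and DNBS mice at 0.0775 to 0.299 overlapped their controls. It rose in DSS (log2 fold change 2.93 ± 0.81 SE, edgeR adjusted p = 0.00748), TCT (2.44 ± 0.75, 0.0161), IL10 (2.36 ± 0.83, 0.0201) and TRUC (3.32 ± 1.19, 0.0256), the last against 1 control count and with a ratio of 13.3 (2.09 to 557). The calls in TRUC and IL10 were each lost in 3 of the 7 fits with a single mouse left out (edgeR adjusted p up to 0.0876 and 0.0699).

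Stat4, the transducer of the IL-12 signal, sat higher in WT_control (0.533, 0.999 and 1.15 CPM) than in Rag2_control (0.266, 0.306 and 0.227) or Rag1_control (0.243, 0.147 and 0), with no overlap. The TCT mice held 4.98, 2.74 and 2.87 CPM, a ratio of 26.5 to their control (95% counting interval 11.1 to 83.2). The DSS mice held 2.90, 1.37 and 8.80 CPM and the IL10 mice 2.11, 2.29, 3.78 and 1.36, all above WT_control. TRUC mice, at 0.356 to 0.959 CPM, lay just above Rag2_control, and anti-CD40 mice, at 0.144 to 0.376, overlapped Rag1_control. Stat4 rose in TCT (log2 fold change 4.63 ± 0.74 SE, edgeR adjusted p = 4.13e-05), DSS (2.26 ± 0.56, 0.00312) and IL10 (1.41 ± 0.54, 0.0321), and did not pass in TRUC (1.23 ± 0.73, 0.171), anti-CD40 (0.87 ± 1.00, 0.575) or DNBS (0.24 ± 0.60, 0.841). The IL10 call was lost in 3 of the 7 fits with a single mouse left out (edgeR adjusted p up to 0.131). The overlapping gene Gm28177 shares 21.7% of its windows.

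Tbx21 is both a member and the gene named as deleted in TRUC. The TRUC mice held 2.43, 4.63, 3.21 and 2.12 CPM, 26 to 52 counts each, above the Rag2_control mice at 0.0885, 0.0765 and 0.529. The label and the transcript therefore stand against each other, although gene totals do not show which exons the reads came from. The change was 3.64 ± 0.61 on the log2 scale (SE, edgeR adjusted p = 6.28e-05). It was 3.83 ± 0.61 in TCT (3.58e-05) and 3.13 ± 0.59 in IL10 (0.000138), where the mice held 5.50, 4.53 and 2.87 CPM and 2.95, 2.39, 3.26 and 2.09 CPM. In DSS (0.378, 0.684 and 1.84 CPM), DNBS (0.478, 0.233 and 1.54) and anti-CD40 (0.564, 0.772 and 0.861) Tbx21 was lower. There the test gave 1.63 ± 0.65 (0.0554), 1.26 ± 0.67 (0.251) and 1.30 ± 0.69 (0.181), none past the threshold.

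**Figure D4:**
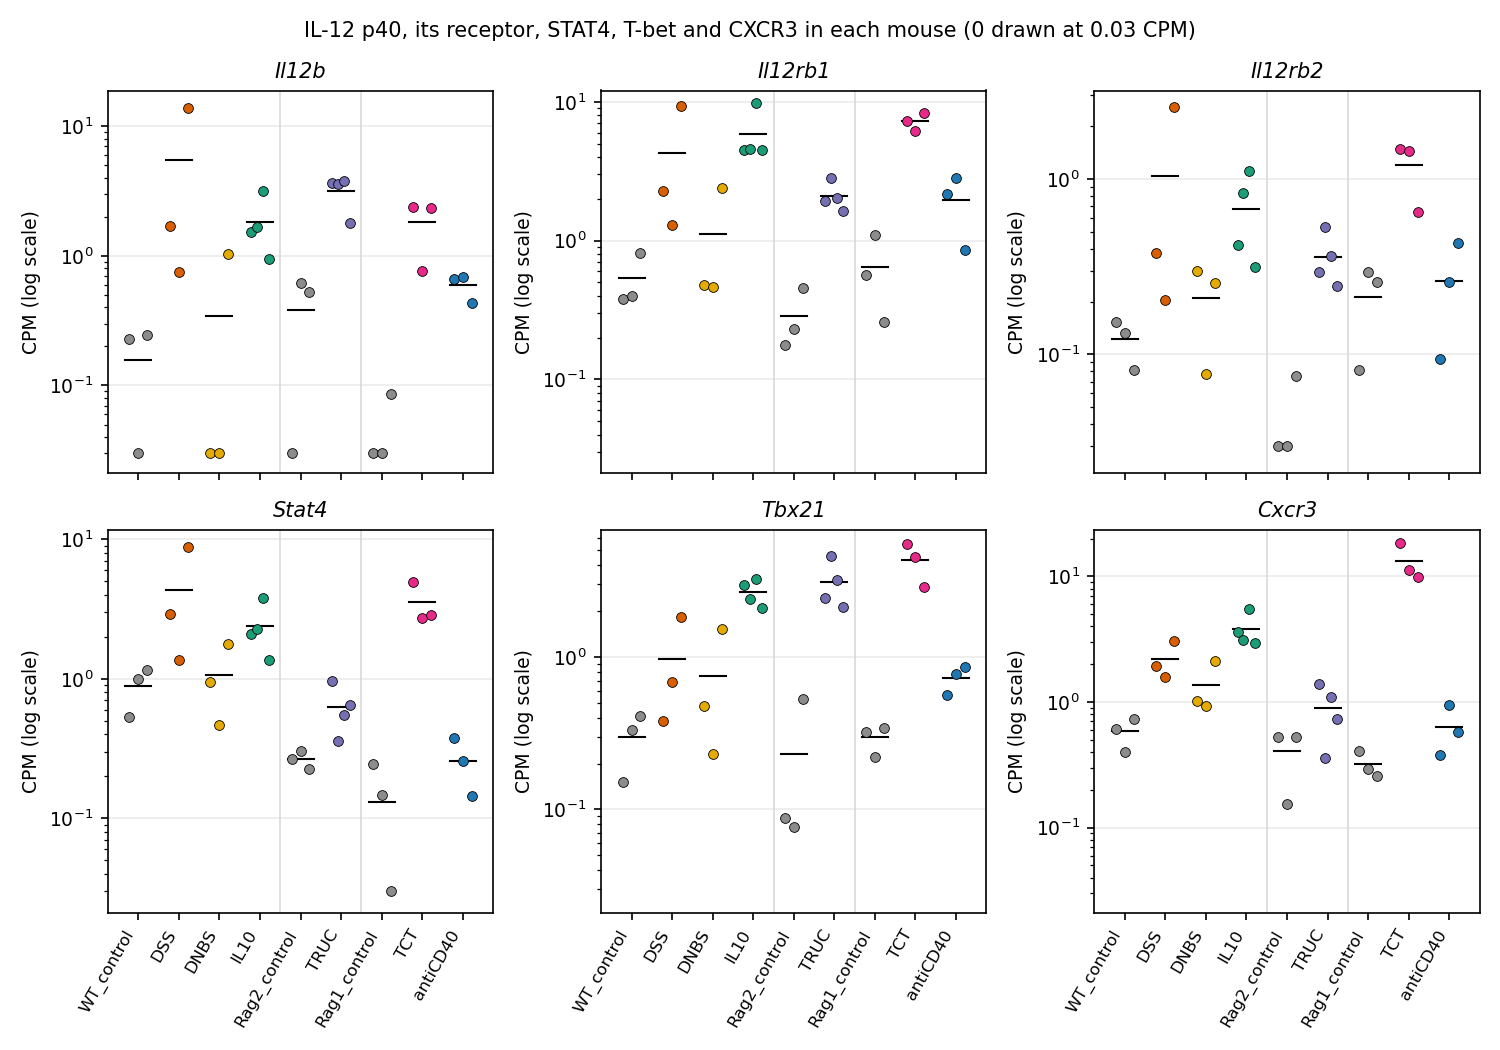
CPM of Il12b, Il12rb1, Il12rb2, Stat4, Tbx21 and Cxcr3 in each mouse by group on a log axis, with mice at 0 drawn at the foot of the axis and a bar at each group mean. TCT mice are highest on average for Il12rb1, Il12rb2, Tbx21 and Cxcr3, and anti-CD40 mice overlap their controls for Il12rb1, Il12rb2, Stat4 and Cxcr3.

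Counted by model, 10 of the 10 genes rose in IL10 against WT_control, where 27.2% of all genes tested rose, and 10 rose in TCT against Rag1_control, where 16.1% did. In DSS 9 rose (all but Tbx21) against 17.7% of all genes, in TRUC 7 rose (all but Stat4, Cxcl11 and Cxcr3) against 22.4%, in anti-CD40 3 rose (Cxcl9, Cxcl10 and Cxcl11) against 10.9%, and in DNBS 2 rose (Cxcl9 and Cxcl10) against 3.95%. None fell in any model. The median log2 fold change of the 10 members was 4.98 in TCT, 4.02 in DSS, 3.49 in IL10, 3.15 in TRUC, 2.78 in anti-CD40 and 1.23 in DNBS, whereas that of all genes tested lay between -0.03 and 0.02. DSS, DNBS and IL10 share their WT_control mice, and TCT and anti-CD40 share their Rag1_control mice, so these counts are not independent of each other.

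The count in DSS was 4 without mouse 8 alone (Il12b, Cxcl9, Cxcl10 and Cxcr3), where 10.4% of all genes rose, and 6 without DSS mouse 8 and DNBS mouse 16, where 11.4% did. Ifng, Il12rb2 and Stat4 lost their DSS calls in both of these fits. Il12rb1 (log2 fold change 1.75, edgeR adjusted p = 0.0536) and Cxcl11 (2.86, 0.0853) lost theirs without mouse 8 alone but passed without both mice (1.74, 0.0218, and 2.85, 0.0313). In DNBS the edgeR count was 0 without mouse 16 alone (1 at an unadjusted p under 0.05), where 2.11% of all genes rose, and 1 without both mice, where 3.33% did. Against WT_control, 10 members rose in TCT beside 16.9% of all genes, and against Rag2_control, 4 rose in anti-CD40 beside 12.4%, with Il12rb1 joining the ligands (log2 fold change 2.69, edgeR adjusted p = 0.0167).

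**Figure D5:**
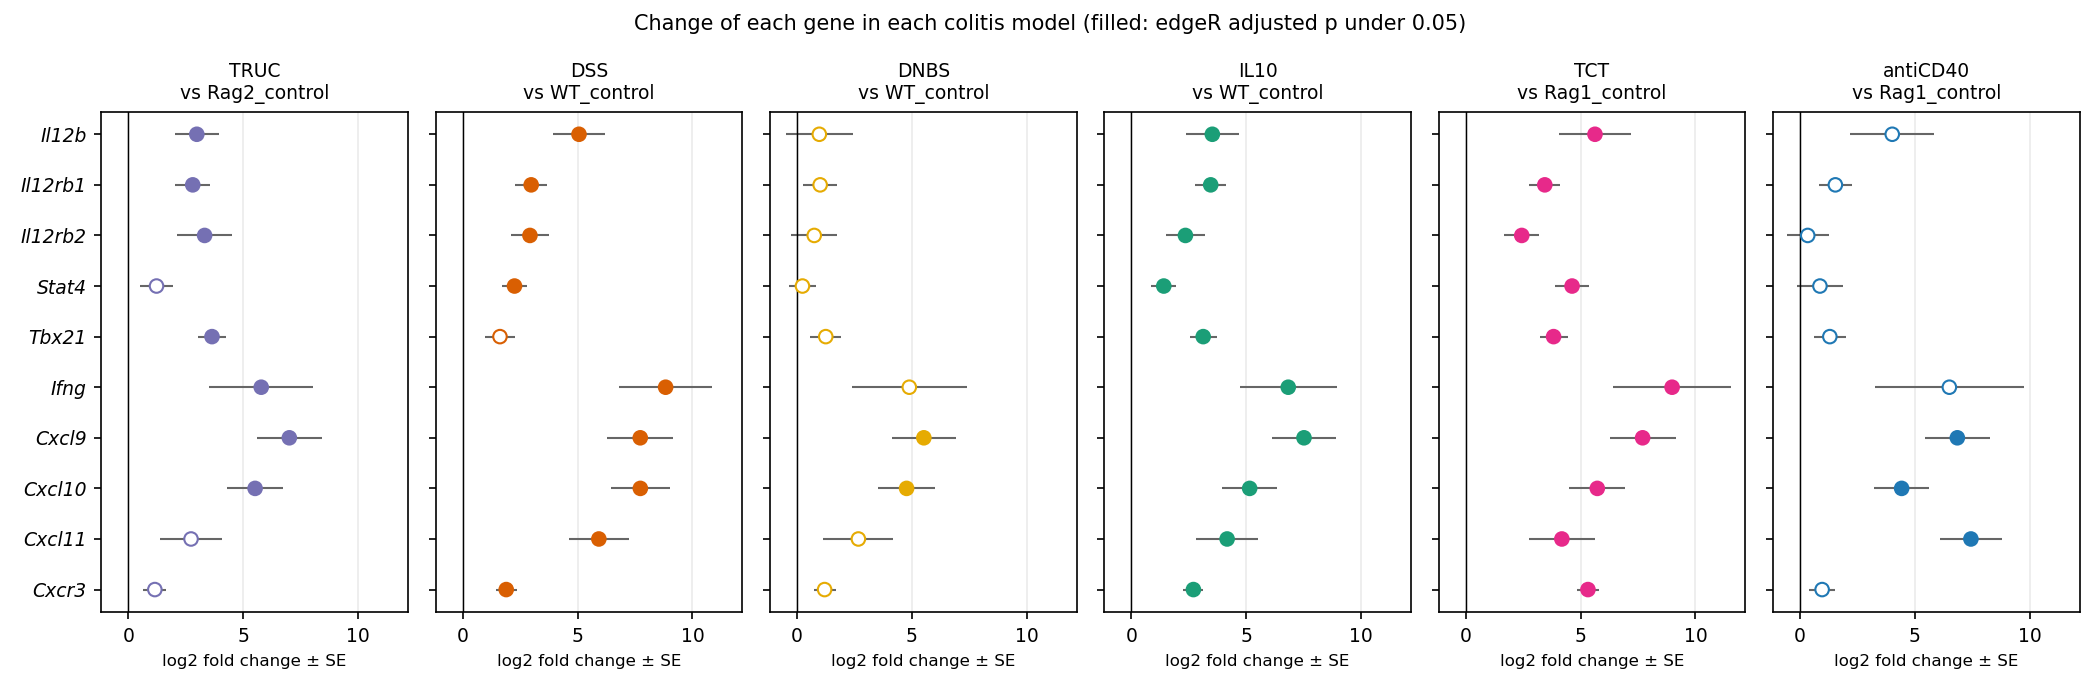
Fitted log2 fold change of the 10 genes against the control of each model, 1 panel per model, with error bars of 1 SE and filled points where the edgeR adjusted p was under 0.05. All 10 points are filled in IL10 and TCT and 3 in anti-CD40, and the Ifng values against Rag1_control rest on a control of 0 counts and depend on the prior count.

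The models were then compared with each other, first by asking whether a gene's change was equal in all 6. An F test over the 6 contrasts in the same edgeR fit rejected this for 8 of the 10 members, beside 60.5% of all genes tested. Cxcr3 differed most between models (F = 26.3, adjusted p = 4.23e-07), followed by Stat4 (10.3, 0.000159) and Tbx21 (8.33, 0.000530). Cxcl9 (1.25, 0.365) and Ifng (2.89, 0.0593) were the genes for which no difference between models was shown. With TCT and anti-CD40 left out, 7 of 10 members differed between the remaining 4 models, as did 10625 of the 18616 genes tested.

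TCT and anti-CD40 share a control, so their difference is a direct contrast, although the mice labelled TCT also differ from anti-CD40 mice in H2-Ea-ps. Of the 10 members, 5 were higher in TCT and 1 lower, beside 18.4% of all genes that differed in either direction. Cxcr3 was higher by 4.36 ± 0.45 on the log2 scale (SE, edgeR adjusted p = 1.4e-07), Stat4 by 3.76 ± 0.68 (0.000271), Tbx21 by 2.53 ± 0.54 (0.00144), Il12rb2 by 2.10 ± 0.73 (0.0450) and Il12rb1 by 1.90 ± 0.60 (0.0288). Cxcl11 was lower in TCT, at -3.25 ± 0.96 (0.0190). The difference in Cxcl9 was 0.85 ± 0.95 (0.609), in Cxcl10 1.30 (0.364) and in Ifng 2.48 ± 1.31 (0.213). Cxcr3, Stat4 and Tbx21 kept their calls in all 6 fits with a single mouse left out. The call was lost in 4 of these 6 fits for Il12rb1 (edgeR adjusted p up to 0.119). It was lost in 4 for Il12rb2 (up to 0.157) and in 3 for Cxcl11 (up to 0.0755). For Ifng, Cxcl9 and Cxcl10 no difference was shown. With only these 2 groups fitted, edgeR and DESeq2 each called 8 of the 10 members. There 9 and 10 members were at an unadjusted p under 0.05, so this division depends on the fit.

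IL10, DSS and DNBS share WT_control and were compared in the same way. Tbx21 was higher in IL10 than in DSS (1.50 ± 0.50, edgeR adjusted p = 0.0149) and Cxcl10 lower (-2.58 ± 0.83, 0.0127), 2 of 10 members beside 49.8% of all genes. The Cxcl10 difference rested on DSS mouse 8: without it and DNBS mouse 16 the sign turned to 0.88, and 5 members were higher in IL10, as were 23.1% of all genes. Against DNBS, 3 of 10 members were higher in IL10, as were 3242 of the 18616 genes tested, while 33.9% differed in either direction. The members were Il12rb1 (2.44, 0.00409), Tbx21 (1.87 ± 0.52, 0.00782) and Cxcr3 (1.50 ± 0.39, 0.00545). Without DSS mouse 8 and DNBS mouse 16 all 10 were higher in IL10, as were 19.9% of all genes. Between DSS and DNBS 7 members were higher in DSS, from Il12rb1 (1.97, 0.0276) to Il12b (4.09, 0.00617). Of the 18616 genes tested, 2114 were higher in DSS and 22.6% differed in either direction. The edgeR count was 0 without DSS mouse 8 alone (1 at an unadjusted p under 0.05), and 2 without both mice, where Il12b and Cxcl9 were higher in DSS, as were 3.43% of all genes.

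Cxcl11 was higher in each anti-CD40 mouse than in any TRUC mouse, both models with few T-cell transcripts, and the difference of their changes was tested after these values had been seen. It was 4.70 ± 2.35 for Cxcl11 on the log2 scale (SE, edgeR adjusted p = 0.332, from 0.317 to 0.622 over the alternative settings). None of the 10 members passed, with 1 at an unadjusted p under 0.05, beside 1.1% of all genes. In the untreated colon, Rag2_control and WT_control differed in 0 of the 10 members by the same edgeR fit, beside 8.11% of all genes. Stat4 alone reached an unadjusted p under 0.05 (-1.71, adjusted p = 0.178), and DESeq2 called 0 while edgeR on those 2 groups called 1, lower in Rag2_control.

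The other genes of the pathway were counted in lists. Of 14 known targets of interferon gamma, all 14 rose in DSS, IL10 and TCT, 13 in TRUC and anti-CD40, and 7 in DNBS (edgeR adjusted p under 0.05), with median log2 fold changes from 2.16 in DNBS to 3.80 in TCT. Ido1, which degrades tryptophan, led the list in every model, at 8.77 in anti-CD40, 8.66 in IL10, 8.04 in TRUC, 8.01 in TCT, 7.23 in DNBS and 7.07 in DSS. Iigp1, an immunity-related GTPase that attacks the vacuoles of intracellular parasites, rose by 4.49 in DNBS to 6.21 in TCT. Nlrc5, the transactivator of MHC class I genes, rose by 5.40 in TCT, 4.63 in TRUC, 4.56 in anti-CD40 and 4.37 in IL10. Without DSS mouse 8 and DNBS mouse 16, 13 of the list rose in DSS and 0 in DNBS by the same edgeR test (2 in DNBS at an unadjusted p under 0.05).

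Of 10 genes for the receptor and signal of interferon gamma, 8 rose in TRUC, DSS and IL10, 7 in TCT, 6 in anti-CD40 and 2 in DNBS, and 1, the receptor chain Ifngr2, fell in DSS (-0.67). The feedback inhibitor Socs1 was among the risers in all 6, by log2 fold changes of 3.44 in DNBS to 5.00 in TRUC, and Socs3 by 2.43 in TCT to 5.39 in DSS. The median change of this list was small beside that of the targets, between 0.51 in DNBS and 1.24 in IL10. With both mice that stood apart left out, 4 rose in DSS, and in DNBS the edgeR test called 0 (3 at an unadjusted p under 0.05).

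Type 1 lymphocyte genes, 15 of them, rose in 14 cases in TCT, 12 in DSS and IL10, 10 in TRUC, 7 in anti-CD40 and 2 in DNBS, and Hlx, a homeobox factor, fell in TRUC (-0.71). Gzmb, a protease of cytotoxic granules, rose in every model, by log2 fold changes of 3.11 in DNBS, 4.51 in TRUC, 5.23 in DSS, 5.39 in anti-CD40, 6.87 in IL10 and 6.91 in TCT. Prf1, the pore-forming perforin, was among the leading genes in anti-CD40 (4.50) and TRUC (3.94), the models with few T-cell transcripts. Ccl5, a chemokine of T and natural killer cells, led in TCT (7.15). The natural killer markers, 5 tested, rose in 5 cases in DSS, 4 in TRUC and IL10, 2 in TCT, 1 in DNBS and 0 in anti-CD40 (2 at an unadjusted p under 0.05). When those mice were left out, 12 of the type 1 lymphocyte genes and 3 of the natural killer markers rose in DSS, and 3 of the type 1 lymphocyte genes in DNBS.

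Among 12 further genes of the IL-12 and IL-18 families, 8 rose in DSS, 6 in IL10, 5 in TRUC and TCT, 2 in anti-CD40 and 1 in DNBS, and Il18 itself fell in TCT (-1.66). Il18bp, a decoy that binds IL-18 and is itself induced by interferon gamma, rose in all 6, by 2.61 in DNBS to 4.57 in IL10. Il18r1 and Il27ra, receptor chains of T cells, rose by 4.19 and 3.37 in TCT. In the fit without DSS mouse 8 and DNBS mouse 16, 4 of these genes rose in DSS, and in DNBS the edgeR test called 0 (2 at an unadjusted p under 0.05). Genes of other T-helper programmes were counted too, 9 of them tested. In DSS 6 rose, led by Il22 (10.78) and Il17a (8.78), and 1 fell. Without DSS mouse 8 and DNBS mouse 16, 4 rose in DSS and 1 fell. In IL10 5 rose, among them Il17a (6.72), and 2 fell. In TRUC 2 rose (Il22, 5.08, and Gata3, 3.67), and in TCT 1 rose (Gata3, 3.23) and 1 fell. In DNBS 0 rose and 1 fell. In anti-CD40 the edgeR test called 0, with 2 at an unadjusted p under 0.05, Gata3 at 2.30 (adjusted p = 0.0569) and Il22 at 6.92 (0.0741). Il4, the cytokine of the T-helper 2 programme, fell in IL10 (-0.97).

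Other cell types moved in the same mice. The summed macrophage and monocyte markers were 309 to 415 CPM in TCT and 78.5 to 110 in anti-CD40, against 43.4 to 63.7 in Rag1_control. They were 333 to 940 CPM in DSS against 114 to 138 in WT_control, and 150 to 220 in TRUC against 56.9 to 79.8 in Rag2_control. Neutrophil markers were highest in TRUC (1533 to 2088 CPM) and DSS (485 to 2229). Their part in the levels of the members was not tested.

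Over the 29 mice, the genes most like Ifng in log2 CPM were Cd274, which encodes the checkpoint ligand PD-L1 (Pearson r = 0.955), Nampt (0.954) and Ly6i (0.948). Those most like Cxcl9 were the interferon-induced GTPase genes Ifi47 (0.994), Tgtp2 (0.991) and Iigp1 (0.990). Among the members, Cxcl9 and Cxcl10 were closest (0.96), Ifng and Cxcl9 reached 0.92, and Stat4 and Cxcl11 were farthest apart (0.34). These values describe mice that share groups and libraries and carry no test.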

How the data were processed

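Total RNA of mouse colon was sequenced in 29 mice. The authors deposited raw counts per gene, 1 column per mouse. Per the submitters' processing notes, reads were trimmed with Trimmomatic, aligned to GRCm38 with HISAT2 and counted with HTSeq; the strand setting is not given in the sources used here. All 29 columns were matched to samples by the column name that each sample's label gives. The 92 spike-in entries held 0 counts in total, and 54409 of 54532 identifiers carried a symbol.

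Counts were fitted with edgeR 4.0.16 (glmQLFit, glmQLFTest; limma 3.58.1, R 4.3.3) with TMM scaling in 1 model of 9 groups without covariates, after a filter at a mean count of 3. P-values were adjusted by Benjamini-Hochberg over 18616 genes with a threshold of 0.05, and a standard error is the log2 fold change over the root of F. The code was tested on simulated counts with 200 changed genes. CPM was the count over the total of the mouse after TMM adjustment. Where controls held 1 to 6 counts, folds are ratios of summed counts with an exact interval, and where they held 0, a bound against 3 counts over the group. Intervals cover counting error only. P-values and standard errors rest on the spread between mice within groups, estimated for each gene over all 9 groups together. A mouse far from its group mates, such as DSS mouse 8, therefore also enters the standard errors of comparisons without its group. Replicates differed beyond sampling noise in all 33 pairs of mice. Replicate numbers shared between groups did not pair the mice (correlations of deviations -0.0812 to 0.0738). Tables used Python 3.11.15, pandas 2.3.3 and scipy 1.17.1, and figures matplotlib 3.10.9.

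Members are named in every comparison. Of each other list at most 4 called genes with the largest change are named, and the 2 with the smallest p where none was called. Members and lists were chosen with earlier results of these data known. Alternatives covered scaling, filter, tool (DESeq2 1.42.0), threshold, replicate block, other controls and each mouse left out. The alternatives without DSS mouse 8 and DNBS mouse 16, the test of 4 models and the contrast of anti-CD40 with TRUC were chosen after seeing the data. Values of some genes of the lists are not reported here.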

Additional observations from a re-analysis of the deposited data

Results flagged for a closer look

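Of 20 sets of member values in the 4 IL10 or 4 TRUC mice, 4 held a mouse whose gap to the others exceeded Dixon's 95% limit, where chance gives about 1 in 20. Ifng in IL10 mouse 4 (7.01 CPM) and Il12rb1 in IL10 mouse 3 (9.87 CPM) lay above their group mates, and Cxcl10 in IL10 mouse 2 (21.7 CPM) and Il12b in TRUC mouse 5 (1.79 CPM) lay below. Groups of 3, DSS and DNBS among them, are too small for this rule.

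Several members changed by different amounts in different models. Between TCT and anti-CD40 the tested differences past the threshold were those of Cxcr3 (4.36 on the log2 scale), Stat4 (3.76), Tbx21 (2.53), Il12rb2 (2.10), Il12rb1 (1.90) and Cxcl11 (-3.25). The calls of Il12rb2, Il12rb1 and Cxcl11 were lost in some fits with a single mouse left out. Between IL10 and DSS the differences past the threshold were Tbx21 (1.50) and Cxcl10 (-2.58), and between IL10 and DNBS Il12rb1 (2.44), Tbx21 (1.87) and Cxcr3 (1.50). Between DSS and DNBS they were Il12b (4.09), Ifng (3.94), Cxcl11 (3.25), Cxcl10 (2.96), Il12rb2 (2.18), Stat4 (2.02) and Il12rb1 (1.97), of which none passed without DSS mouse 8.

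The edgeR F test of equal change in the 6 models gave adjusted p of 4.23e-07 for Cxcr3, 0.000159 for Stat4, 0.000530 for Tbx21, 0.00592 for Il12rb1, 0.00593 for Cxcl11, 0.0154 for Il12b, 0.0248 for Il12rb2 and 0.0257 for Cxcl10. The models differ in strain label, genotype and treatment together, which cannot be told apart here.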

How the results depend on the processing

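Over the 60 changes of the 10 members in the 6 models, 820 alternative values kept direction and side of the threshold, 60 lost a call, 12 gained one and 10 turned sign, none of these 10 being a called value. At an adjusted p of 0.01 the counts of members called were 4 in TRUC, 0 in DNBS, 6 in IL10, 3 for TCT against anti-CD40, 0 for IL10 against DSS, 1 for DSS against DNBS and 5 in the test of 6 models. With edgeR on the 2 groups they were 0 in DNBS, 5 in anti-CD40 (Ifng and Il12b added), 0 for IL10 against DSS, 0 for DSS against DNBS and 1 for Rag2_control against WT_control, and with DESeq2 1 in DNBS, 1 for IL10 against DSS and 0 for DSS against DNBS. For the counts of 0, members at an unadjusted p under 0.05 numbered 4 in DNBS and 2 for IL10 against DSS with edgeR on the 2 groups, and for DSS against DNBS 2 with that setting and 3 with DESeq2. TCT against anti-CD40 gave 8 with either tool on the 2 groups. Scaling by total counts gave 5 for IL10 against DSS. It moved the median of all genes by more than 0.1 in TRUC, anti-CD40 and the IL10 comparisons, to -0.35 in IL10 against WT_control, where 2948 genes then rose and 7701 fell instead of 5058 and 4858, while the direction of every called member held there.

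With the replicate number as a block, 8 members rose in TRUC and 9 in IL10, and 1 differed between Rag2_control and WT_control; the labels do not say that a shared number marks an animal, litter or batch, so this pairing is a setting only. The cause of these moves was not tested.

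With single mice left out, the count ranged from 4 to 7 in TRUC (4 without Rag2_control mouse 1) and 4 to 10 in DSS (4 without mouse 8). It was 0 to 2 in DNBS (0 without DNBS mouse 16 or any WT_control mouse) and 6 to 10 in IL10 (6 without WT_control mouse 2). In TCT it was 8 to 10 and in anti-CD40 3 to 3. For TCT against anti-CD40 it was 3 to 5 in either direction, where the main fit had 5 higher and 1 lower. For IL10 against DSS it was 2 to 5. For IL10 against DNBS it was 2 to 8. The 8, without DNBS mouse 16, were all higher in IL10, as were 18.2% of all genes. It was 0 to 8 for DSS against DNBS and 7 to 10 in the test of 6 models. TCT against anti-CD40 gave 3 without anti-CD40 mouse 6 or TCT mouse 1. IL10 against DSS gave 4 and 5 without DSS mouse 5 or 6, all lower in IL10. Without mouse 8 it gave 5, all higher in IL10, as were 22.5% of all genes. DSS against DNBS gave 2 and 1 without DNBS mouse 11 and DNBS mouse 14. It gave 0 without DSS mouse 8, where 8.65% of all genes differed in either direction. Without DSS mouse 8 and DNBS mouse 16 the counts were 1 in DNBS, 5 for IL10 against DSS, 10 for IL10 against DNBS and 2 for DSS against DNBS.

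Signs turned for members near 0 or resting on 1 mouse, given here as the range of the log2 fold change with single mice left out. In DNBS the range was -4.01 to 1.66 for Il12b (negative without mouse 16, both other mice at 0 counts), -0.15 to 1.43 for Il12rb1 (negative without mouse 16) and -0.29 to 0.59 for Stat4 (negative without mouse 16 or WT_control mouse 1). In anti-CD40 it was -0.23 to 0.69 for Il12rb2 (negative without mouse 8 or Rag1_control mouse 2), and Stat4 stood at -0.081 against Rag2_control. For IL10 against DSS it was -2.60 to 3.71 for Ifng, -2.07 to 0.57 for Il12b, -1.08 to 1.17 for Il12rb2, -1.29 to 0.16 for Stat4, -0.78 to 2.97 for Cxcl9, -3.15 to 0.89 for Cxcl10 and -2.31 to 1.31 for Cxcl11, the positive end without DSS mouse 8. For IL10 against DNBS it was -0.13 to 2.32 for Cxcl10, negative without mouse 11 or 14. For DSS against DNBS it was -1.77 to 7.69 for Ifng, -0.45 to 1.33 for Tbx21, -0.97 to 5.68 for Cxcl9 and -0.51 to 4.91 for Cxcl10, the negative end without DSS mouse 8 (Tbx21 also without DNBS mouse 14). Without DSS mouse 8 and DNBS mouse 16 together, Il12b stood at -4.01, Il12rb1 at -0.15 and Stat4 at -0.29 in DNBS, and IL10 against DSS gave 3.71 for Ifng, 0.57 for Il12b, 1.17 for Il12rb2, 0.16 for Stat4, 2.96 for Cxcl9, 0.88 for Cxcl10 and 1.31 for Cxcl11. DESeq2 gave no adjusted p for some members, and these settings have no value. At 10725564 counts or more per mouse, Ifng, Il12b, Il12rb2 and Cxcl11 in controls rest on 0 to 8 counts, so depth limits their folds.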
